A study of Caenorhabditis elegans with 2 samples.

Results

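The peaks described here are the EFL-1 binding sites whose summits lay just inside protein-coding genes of Caenorhabditis elegans. Each is a peak of the list that passed an irreproducible discovery rate (IDR) filter. Its summit lay 0 to 500 bp past the nearest 5' end that the annotation gives to any protein-coding transcript. The rule kept 279 peaks, 6.15% of the IDR list (95% Wilson interval 5.49% to 6.89%). Among the 2681 summits within 500 bp of a 5' end on either side, they made up 10.4% (9.31% to 11.6%). The other 2402 lay 1 to 500 bp upstream and are called upstream peaks below, and 1853 IDR summits were farther from any 5' end. The rule used position, so position is only described. It also bears on the class of sequence under the summit and on its side of the start codon. The rule bears too on whether the peak covers the 5' end and whether that end is the outermost of its gene. It bears as well on splice-site letters before that end and on the distance to a divergent gene. Through intronic summits it bears on intron length, and it leaves members more room for a second summit upstream. Intervals on shares are 95% Wilson intervals throughout, treat peaks as independent, and cover counting error only.

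EFL-1 had been immunoprecipitated from whole L1 larvae of the strain MT10430, which carries lin-35(n745), a mutation in the worm's only retinoblastoma-family pocket protein gene. Animals were of mixed sex, and both samples, biological replicates 2 and 3, belong to 1 group with the same strain source, so every peak was measured in the mutant. No wild type, other stage or other antibody was analysed here, and neither age nor extraction protocol is given in the labels. Whole larvae were used, so the cells that carried a site cannot be told apart, and peak lists cannot check the labelled stage or tissue against markers.

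EFL-1 is a worm E2F protein. E2F proteins bind DNA with a DP partner, and with a pocket protein and MuvB subunits they form the DREAM complex, which represses cell cycle genes and, in worms, germline genes in somatic cells. Promoters in worms are hard to place from annotation alone. Many worm transcripts receive a spliced leader in trans, so the annotated 5' end is often a 3' splice site that lies downstream of where transcription began. Other genes have alternative promoters inside the locus or regulatory sites in a long first intron.

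The E2F-type words found near these summits are shown in 8 members chosen for holding one (TTTCCCGC, TTTCGCGC, TTTGCCGC or TTTGGCGC, searched on both strands within 100 bp of the summit). Most members held none, the 3 strongest among them, and cdt-1, which held one, is not shown. All are from the RefSeq copy of WBcel235, the assembly that ce11 also names, and all are written 5' to 3' on the strand of the gene. Capitals mark the word, and every other base is in lower case. The windows have 30 bases, except that of hrpu-1, which spans 101 bases of intron centred on the summit and holds 2 words. They are chrIII:1080774-1080803 (minus strand) for rab-18, chrIII:5871981-5872010 (plus) for F01F1.3, chrIV:15039671-15039771 (plus) for hrpu-1, chrIV:1012676-1012705 (plus) for rbm-39, chrIII:6303205-6303234 (minus) for F47D12.9, chrII:14413244-14413273 (minus) for exl-1, chrII:10824260-10824289 (plus) for mix-1 and chrII:3523642-3523671 (minus) for col-72.
rab-18: aacaaatccatTTTCGCGCcatcgggtctc
F01F1.3: tttgaatttaaTTTGCCGCacaaaaatttt
hrpu-1: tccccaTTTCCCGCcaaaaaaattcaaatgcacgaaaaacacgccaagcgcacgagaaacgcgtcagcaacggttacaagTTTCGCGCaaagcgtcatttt
rbm-39: aactaattattGCGCGAAAttcgcactaaa
F47D12.9: tgagagagtgtGCGCCAAAcgtgtcttatg
exl-1: gaattttcaagTTTGCCGCcaaaaccaaac
mix-1: tctcaaaagacGCGCCAAAaaacattcaaa
col-72: aaaacaatgaaGCGGCAAAtagatttttga

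The words of rab-18, F01F1.3, hrpu-1 and exl-1 read along the gene, and those of rbm-39, F47D12.9, mix-1 and col-72 read on the other strand. The word of rab-18 was centred 13.5 bp before the annotated 5' end although the summit was past it. In hrpu-1 the words were centred 64.5 and 138.5 bp into the gene, on either side of the summit at 105 bp.

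A second word, GAGACGCA, lay within 100 bp of 42 member summits (15.1%), beside 17.5% of all IDR peaks and 14.9% of upstream peaks. It is shown for lgg-2 (chrIV:10935564-10935593, minus strand), whose product is an LC3-family autophagy protein, and for unc-69 (chrIII:10318961-10318990, plus strand), a gene of axon outgrowth. Capitals mark the word on either strand.
lgg-2: gtaaaaggtcaGAGACGCAgaggacagaca
unc-69: agacaattctcTGCGTCTCtcacgctcgcc

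Summits thinned out quickly past the 5' end. The median distance was 110 bp, with quartiles of 28 and 256.5 bp. Of the 279 summits, 93 lay within 50 bp, 41 at 51 to 100 bp, 52 at 101 to 200 bp, 42 at 201 to 300 bp, 24 at 301 to 400 bp and 27 at 401 to 500 bp. The fullest 50 bp bin near 5' ends held 456 peaks, and it lay from 150 to 100 bp upstream. The last 50 bp bin before the 5' end held 293 peaks and the first bin past it held 92. On the near side of the limit of 0 were rbm-39, which encodes an RNA-binding protein, and arrd-19, of the arrestin-domain family, both at 0 bp, and M01H9.3 at 1 bp. On the far side, Y57E12AL.1, uvs-1 and sart-3 lay 1 bp upstream and were left out. At the other limit pck-2, a phosphoenolpyruvate carboxykinase gene, lay at 500 bp, zfp-1, a zinc finger gene of the AF10 family, at 492 bp, and snx-13, a sorting nexin gene, at 490 bp. F37C4.6 and irld-1 at 501 bp and C25D7.9 at 503 bp fell just outside.

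**Figure D1:**
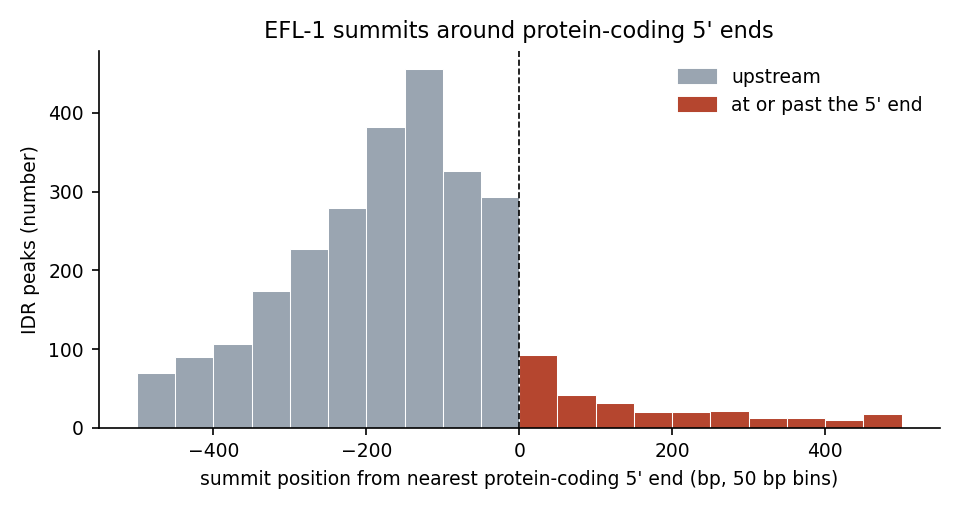
Number of IDR peaks by summit position relative to the nearest protein-coding 5' end, in 50 bp bins with upstream positions negative. Upstream bins held 69 to 456 peaks, the first bin past the 5' end held 92, and later bins held 10 to 42.

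The kind of sequence under the summit shifted with distance. In all, 144 summits (51.6%, 45.8% to 57.4%) fell in a 5' UTR, 95 (34.1%, 28.7% to 39.8%) in an intron and 36 (12.9%, 9.47% to 17.3%) in coding sequence. The other 4 fell in a 3' UTR (W09G3.6 and Y105E8B.6) or outside every protein-coding transcript (K08F11.1 and hut-1). Within 50 bp of the 5' end 86 of 93 summits were in a 5' UTR and none in an intron. From 401 to 500 bp, 22 of 27 were in an intron and 1 in a 5' UTR. Summits in a 5' UTR lay a median of 36.5 bp from the end, those in coding sequence 133.5 bp and those in an intron 271 bp. In 113 members (40.5%) the summit was past the start codon, 72 of them in an intron and 36 in coding sequence.

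**Figure D2:**
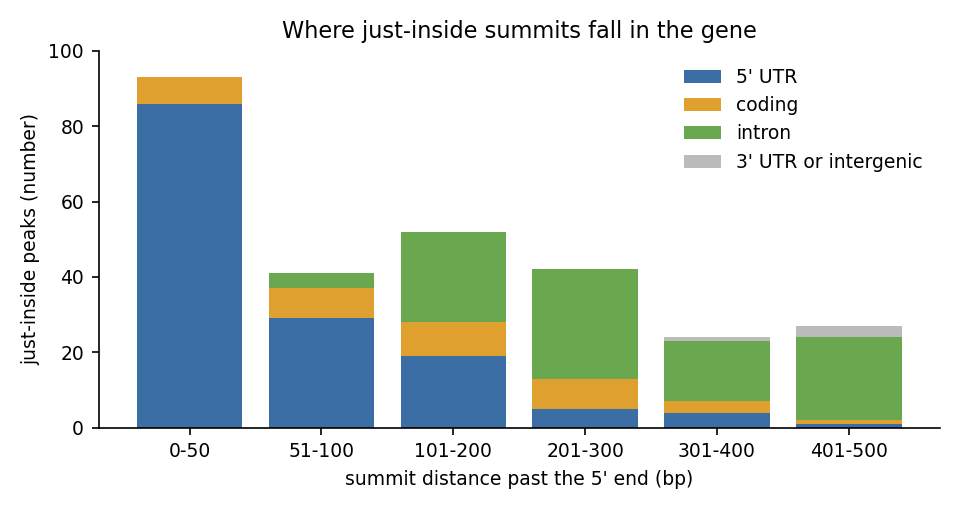
Number of just-inside peaks in each distance band (bp past the 5' end), divided by where the summit fell. The 5' UTR held 86 of 93 summits in the nearest band, and introns held 22 of 27 in the farthest.

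The peaks were weaker than those upstream. Strength was the authors' own signal value, used only to rank peaks within a list. The median signal was 100.1 in the IDR list, against 162.9 for upstream peaks and 124.8 for all IDR peaks. The order was the same in the replicates' separate lists, with medians of 61.2 and 100.3 (members and upstream peaks) in replicate 2 and of 41.3 and 64.3 in replicate 3. As a percentile of the IDR list, with 100 the strongest, the member median was 40.3 and the upstream median 59.6. Of the 500 strongest IDR peaks, 11 were members, which is 3.94% of members (2.22% to 6.92%), while 377 were upstream peaks, 15.7% of theirs (14.3% to 17.2%). The median percentile was 51.5 within 50 bp of the end, 43.4 at 51 to 100 bp, 32.6 at 101 to 200 bp and 24.9 at 201 to 300 bp. It was 43.1 at 301 to 400 bp and 36.95 at 401 to 500 bp, so strength did not fall steadily with distance. By class the medians were 51.2 for summits in a 5' UTR, 34.4 for those in an intron and 29.6 for those in coding sequence. No test was run over regions, since both samples are of 1 group, and such differences between kinds of peak are descriptions.

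**Figure D3:**
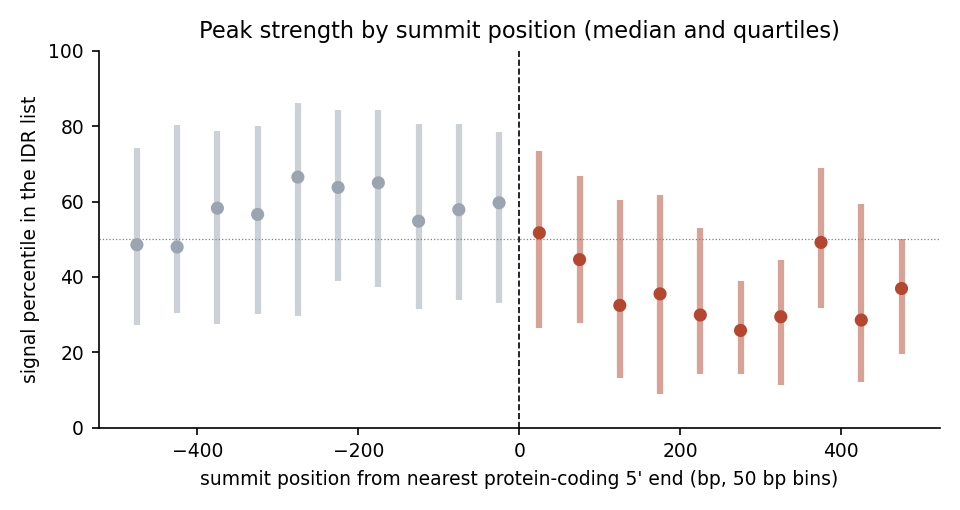
Signal percentile in the IDR list (100 is the strongest) by summit position in 50 bp bins, with points for the median and bars from the lower to the upper quartile of the peaks in each bin. Upstream medians lay between 47.96 and 66.49, and medians past the 5' end lay between 25.83 and 51.71.

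Each of the 279 regions overlapped a region in both replicates' own lists, as did 99.8% of all IDR peaks, since the IDR list was taken from a joint call on the same replicates. In 236 (84.6%, 79.9% to 88.4%) the overlapping region was among the strongest in both replicates, counting as many regions per replicate as the IDR list holds, beside 86.9% of all IDR peaks and 90.4% of upstream peaks. All 115 members and all 1419 upstream peaks in the stronger part of the IDR list (ranks up to 2267) met this, as did 121 of the 164 weaker members (73.8%), beside 752 of 983 weaker upstream peaks (76.5%). Ranked in the replicates' own lists, members differed by a median of 139 places in the stronger part and 699 in the weaker part, and upstream peaks by 99 and 577.5 places. The median gap between the replicates' summits was 17 bp in members and 10 bp in upstream peaks, and within the stronger part it was 10 bp and 8 bp.

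Both replicates put the summit past the 5' end in 247 members (88.5%, 84.3% to 91.8%), and both put it before the end in 98.1% of upstream peaks. The joint summit that chose the side comes from the same replicates, so these shares are descriptions. This held for 62 of the 93 members within 50 bp of the end and for 185 of the 186 beyond, with K07A1.3 as the exception. In 1 member, gsa-1, which encodes a stimulatory G protein alpha subunit, both replicates placed the summit upstream, at 172 and 165 bp before the end. That gene has a stronger IDR summit, of rank 560, 165 bp upstream. In 6 members, at F54F2.6, K08F11.1, cpz-1, gsa-1, rgs-6 and ruvb-1, the region overlapped that of another IDR peak, so a replicate region can stand for both. In 4 members, at Y73B6BL.31, cpz-1, nhr-56 and rgs-6, a replicate's summit lay outside the joint region.

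**Figure D4:**
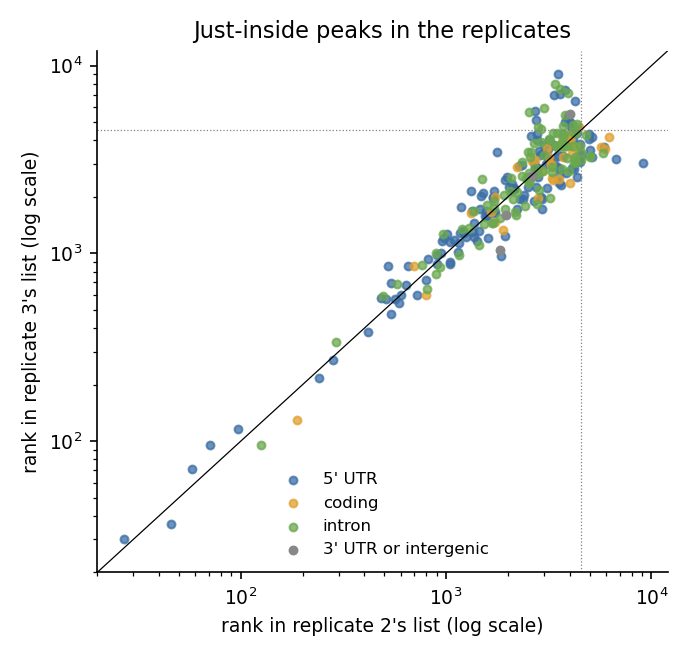
Rank of each of the 279 peaks in replicate 2's list (x axis) and replicate 3's list (y axis), both on log scales with 1 as the strongest, coloured by where the summit fell. The line marks equal ranks, the dotted lines mark the length of the IDR list, and the points spread most among weak peaks.

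C03H5.3 had the strongest of these peaks, at rank 29 of the IDR list. Its signal was 1553 in replicate 2 and 1008 in replicate 3, and its summits there lay 56 and 60 bp past the end, in the 5' UTR. The next was at ints-4, which encodes a subunit of the Integrator complex of small nuclear RNA processing, at rank 40 with signals of 1280 and 961. Y55F3BR.1 followed at rank 63, with 1160 in replicate 2 and 710 in replicate 3. These 3 summits lay 53 to 86 bp into a 5' UTR in genes whose first introns had 50 to 78 bp, and none had an E2F-type word within 100 bp.

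The gene rab-18, for a small GTPase of the Rab family, was at rank 77, with signals of 1079 and 634.1 and a summit 17 bp into its 5' UTR. The same summit lay 143 bp upstream of the divergent gene kbp-4, a kinetochore gene, so the peak can be read for either. F01F1.3 at rank 104 had signals of 929 and 564, and its summit at 13 bp was 74 bp upstream of F01F1.11. Both of these held an E2F-type word.

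The strongest intronic member was hrpu-1, the worm gene for an hnRNP U-like RNA-binding protein, at rank 111 with signals of 780 in replicate 2 and 637 in replicate 3. Both replicates placed the summit 105 bp past the end, inside a first intron of 411 bp and within the non-coding gene Y41E3.459. Y18D10A.4, at rank 159, had the strongest summit in coding sequence, 71 bp past a 5' end that coincides with its start codon, with signals of 615 and 524. Then came cdt-1, the replication licensing factor, at rank 231 with 549 and 388, and ceh-38, a homeobox gene of the ONECUT class, at rank 275 with 502 and 342. F40F11.3 at rank 309 had signals of 488 and 295, and its summit lay 396 bp past the end in both replicates, in a first intron of 1144 bp. Replicate 2 gave the higher signal in each of these 10 peaks, and signal is not scaled between the lists.

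At the weak end were gly-11, of the polypeptide N-acetylgalactosaminyltransferase family (rank 4495), the farther of the pck-2 summits (rank 4502) and moc-6, a molybdenum cofactor gene (rank 4524). Their signals were 19.9 and 26.2, 18.8 and 21.3, and 36.4 and 12.3 in replicates 2 and 3, and for each of them 1 replicate ranked the region beyond the length of the IDR list. The largest rank differences between replicates were at lir-2, a zinc finger gene related to lin-26 (rank 9089 in replicate 2 and 3027 in replicate 3), and at Y54G11A.9 (3516 and 8997). They were followed by egl-17, a fibroblast growth factor gene (3386 and 7962), R02D5.9 (3596 and 7500) and aars-1, an alanyl-tRNA synthetase gene (3779 and 7452). All 5 were weak members, at ranks 3787 to 4379 of the IDR list.

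Intronic members tended to sit in genes with long first introns. Beside hrpu-1 and F40F11.3, the strongest intronic members with no other IDR summit upstream were spd-5, which encodes a centrosome scaffold protein (rank 544, 220 bp, first intron of 1061 bp), Y56A3A.31 (rank 622, 131 bp, 8027 bp) and mel-32, a serine hydroxymethyltransferase gene (rank 737, 95 bp, 885 bp). The spd-5 signals were 324 and 189 in replicates 2 and 3, those of Y56A3A.31 were 288 and 169, and those of mel-32 were 218 and 179.8. The first intron had a median length of 609 bp in intronic members and 73 bp in 5' UTR members. Over all 269 members whose transcript has an intron the median was 206 bp, against 58 bp for upstream peaks. A first intron over 500 bp was found in 84 of them (31.2%, 25.99% to 36.996%) and in 14.2% of upstream peaks (12.9% to 15.7%). An intronic summit needs an intron at that position, so the class itself favours long introns. In the stronger part of the list the shares were 25.23% for members and 11.7% for upstream peaks.

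Members often belonged to 5' ends that were not the outermost of their gene. The rule favours this, since a summit before all 5' ends of its gene is nearest to the outermost one. Outside every protein-coding transcript lay 86.1% of upstream summits. The outermost 5' end was the nearest in 196 members (70.3%, 64.6% to 75.3%), and in 90.5% of upstream peaks (89.2% to 91.6%). The other 83 belonged to internal 5' ends, a median of 898 bp past the outermost one, and 45 of them were over 500 bp past it. The farthest, 31745 bp into the locus, was at crh-1, the worm CREB gene (rank 3257, 11 bp past the internal end). The genes din-1, which encodes a corepressor of the nuclear receptor DAF-12, vhp-1, a MAP kinase phosphatase gene, and lin-42, the worm period homologue of the heterochronic pathway, had members at internal ends 12258 to 15390 bp into the locus. Members at internal ends were weaker, with a median percentile of 32.2, against 44.1 at outermost ends. In all, 274 genes owned the 279 peaks, because lin-42, vhp-1, pck-2, Y39A1C.1 and Y73B6BL.31 owned 2 each.

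The annotated 5' ends carried fewer signs of splicing than those of upstream peaks. The rule bears on this comparison, since a 5' end at a splice site lies downstream of where transcription began. A summit near that start then falls on the upstream side. Upstream summits had a median position of -202 bp where AG stood before the end and -127 bp where it did not. The shares and their change with distance are therefore only described. The genome bases AG, the last letters of a 3' splice site, stood just before the annotated 5' end in 46 members (16.5%, 12.6% to 21.3%). Over all 29314 protein-coding 5' ends the share was 26.4%, and for upstream peaks it was 44.5% (42.6% to 46.5%). At outermost 5' ends alone, the shares were 17.9% in members and 46.1% in upstream peaks, and in the stronger part of the list they were 8.70% and 45.4%. Among members AG was rarest close to the end. It stood before 4 of 93 ends with the summit within 50 bp (4.30%), 17 of 93 at 51 to 200 bp (18.3%) and 25 of 93 at 201 to 500 bp (26.9%). Members with AG had a median percentile of 28.6 and those without it 43.1. The fuller acceptor TTTCAG preceded 16 member ends (5.73%), 22.5% of upstream ends and 11.6% of all 5' ends.

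The letters around 3 of these 5' ends are shown to illustrate both kinds, each with 20 bases before the end and 10 from it on. In exl-1 (chrII:14413466-14413495, minus strand), a chloride intracellular channel-like gene, and Y56A3A.31 (chrIII:11974457-11974486, plus strand), capitals mark the acceptor directly before the end. In C03H5.3 (chrII:386068-386097, plus strand) the capital marks the annotated first base, and the same 6 letters stand close to it but not directly before it. The letters also stand in the 20 bases before the end of Y55F3BR.1, again not directly before it, which is not shown.
exl-1: aatagcttcacacaTTTCAGtcaatagaga
Y56A3A.31: tcttattttcaaacTTTCAGactcaaaacg
C03H5.3: acaccagacccttttcaggtCtcgacacga

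After this was seen at C03H5.3, TTTCAG was also counted anywhere within 20 bp of the end. It was there for 35 members (12.5%, 9.16% to 16.9%), 35.0% of upstream peaks (33.1% to 36.9%) and 24.7% of all distinct 5' ends. Only 2 of the 35 had their summit within 50 bp of the end. The rule bears on these shares as it does on those of AG.

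**Figure D5:**
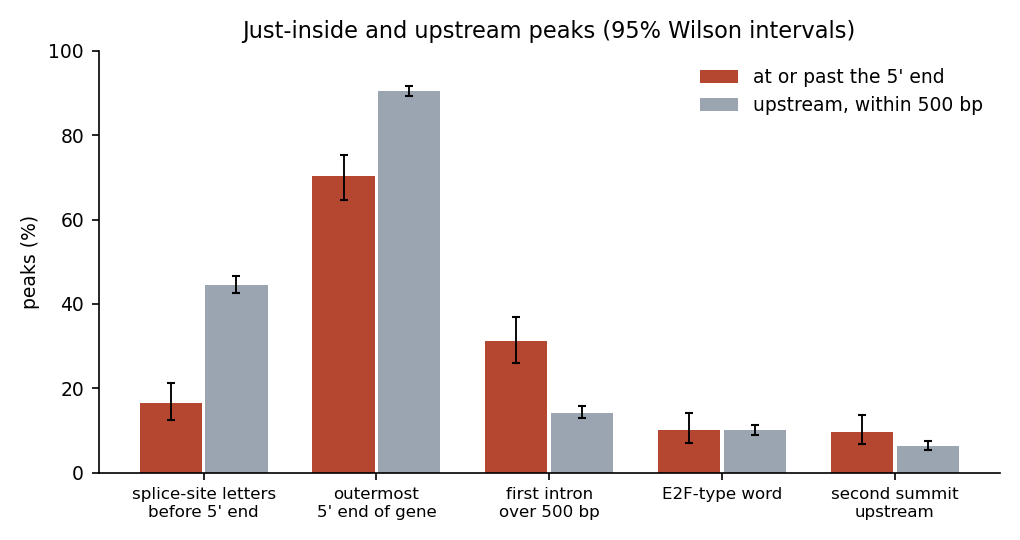
Share of just-inside peaks (red) and upstream peaks (grey) with each feature, with 95% Wilson intervals; the splice-site letters are those directly before the annotated 5' end. The first 3 pairs of intervals do not overlap and the last 2 do. The rule that set position bears on the splice-site, outermost-end, first-intron and second-summit pairs.

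E2F-type words were about as frequent under these summits as under upstream ones. They lay within 100 bp of 28 member summits (10.04%, 7.04% to 14.1%), beside 9.64% of all IDR peaks and 10.2% of upstream peaks. In windows of the same 201 bp centred on all protein-coding 5' ends the share was 2.33%. The 28 members held 31 matches, of which 21 lay within 50 bp of the summit, 28 were past the 5' end and 16 read along the gene. TTTCCCGC accounted for 10 matches, TTTGGCGC for 9, TTTGCCGC for 7 and TTTCGCGC for 5. Words were found in 15 of the 144 summits in a 5' UTR, 10 of the 95 in an intron and 3 of the 36 in coding sequence. Members with a word were stronger, with a median percentile of 60.6 against 38.2 for the 251 without, and upstream peaks had medians of 75.6 and 57.8. A word was present in 4 of the 11 members among the 500 strongest peaks, in 18 of the 115 members up to rank 2267 (15.7%) and in 10 of the 164 below (6.10%). The upstream peaks had a word in 79 of 377 (20.95%), 12.3% and 7.02% in the same parts of the list.

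The 8 strongest members with a word were rab-18, F01F1.3, hrpu-1, cdt-1, rbm-39, F47D12.9, exl-1 and mix-1. Behind the first 4, rbm-39 was at rank 567 with signals of 290.1 and 198, and its summit was 10 bp before the end in replicate 2 and 1 bp past it in replicate 3. F47D12.9 was at rank 742 (259 and 139), with its summit 115 bp into the 5' UTR and a weaker IDR summit 584 bp upstream. The exl-1 peak was intronic, at rank 813 (232 and 137), 242 bp past the end. The peak of mix-1, for an SMC subunit of condensin, was at rank 935 (194 and 121).

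Among the other words, GAGACGCA lay within 100 bp of 42 member summits (15.1%, 11.3% to 19.7%), beside 17.5% of all IDR peaks, 14.9% of upstream peaks and 1.54% of all 5' end windows. GAGAGA was found at 111 (39.8%), beside 43.4% of all IDR peaks, 34.9% of upstream peaks and 13.99% of all 5' end windows. The CHR-type words TTTGAA or TTCGAA, which resemble the cell cycle homology element bound by MuvB proteins, were at 123 (44.1%), beside 44.7%, 51.6% and 49.6%. TATAAA was at 30 (10.8%), beside 12.9%, 15.2% and 24.0%. In 14 members matches of different words overlapped. The GC content of the 201 bp around the summit had a median of 42.3% in members and 39.8% in upstream peaks.

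Some members shared their gene or their peak with other sites. Another IDR summit lay 1 to 1000 bp upstream of the same 5' end in 27 members (9.68%, 6.74% to 13.7%), beside 6.41% of upstream peaks (5.50% to 7.46%). An upstream peak takes up part of that stretch itself and a member's summit does not, so the comparison is uneven. The member share was 11.1% in replicate 2's list alone and 15.1% in replicate 3's. With any joint region counted upstream it was 40.9%. The joint list also holds background, with a −log10 q value over 2 in 6596 of its 21875 regions. Upstream peaks were not counted in these ways. In 11 of the 27 the second summit was the stronger. The strongest such neighbours were at fbxa-90, an F-box gene, where the member ranked 1677 and the upstream summit 122, and at ari-1.4, an Ariadne-family gene, with ranks of 1819 and 277. In lgg-2 the ranks were 851 and 373. The reverse was found at ceh-38, with the member at 275 and the upstream summit at 4125. Of these pairs, 16 had the member's summit 201 to 500 bp past the end.

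In 80 members (28.7%, 23.7% to 34.2%) the summit also lay within 1000 bp upstream of another protein-coding gene, which was on the opposite strand in 69. The share was 37.5% among upstream peaks (35.6% to 39.4%). A member's summit lies past its own 5' end, which uses part of the distance to a divergent gene. The comparison is thus uneven. Some of these other genes were in the gene lists used here, and the share of all genes in a list was not counted. Divergent partners included the kinetochore genes kbp-4 (143 bp, with rab-18) and him-10 (105 bp, with polq-1, for DNA polymerase theta) and spdl-1, the worm Spindly gene (268 bp, with snpc-1.1). The nucleoporin gene npp-6 lay 395 bp from the spd-5 summit, and the DNA ligase gene lig-1 lay 655 bp from that of C29A12.1. The ribosomal protein genes rpl-30, rpl-10 and rps-18 lay 380, 418 and 478 bp from member summits at pab-1, ints-11 and sec-61.A. Listed partners of other kinds were col-8, ceh-100, fbxa-26, fbxa-137, rde-8, mut-2, mrpl-40, eif-4A3 and, on the same strand, rsp-6. They span the collagen, homeobox, ubiquitin, small RNA, mitochondrial ribosomal, translation and splicing lists. The peak itself covered its own 5' end in 155 members (55.6%) and in 36.8% of upstream peaks.

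Non-coding genes lay over 20 member summits (7.17%, against 5.58% upstream), 14 with a gene annotated as ncRNA, 6 with a tRNA gene and 1 with a snoRNA gene, at din-1, which also lay in an ncRNA gene. The 6 in tRNA genes were all intronic and weak, with ranks of 3140 to 3989. They were at dos-1, a Notch co-ligand gene, C35E7.9, nhr-41, mpz-3, egl-17 and C52G5.2. Summits in tRNA genes made up 2.15% of members (0.989% to 4.61%), 0.291% of upstream peaks and 1.59% of all IDR peaks.

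Of the 19973 protein-coding genes 274 owned a just-inside peak (1.37%) and 2346 an upstream one (11.7%), and 31 owned both. Against these shares, 30 gene lists were read by their counts. No member was nearest to any of the 22 DREAM and synMuv B genes (7 with an upstream peak), 29 cell cycle genes (10), 36 chromatin genes (15) or 78 ribosomal protein genes (42). The same held for 33 proteasome genes (21 with an upstream peak), 26 nuclear pore genes (16), 39 respiratory chain genes (20), 20 vacuolar ATPase genes (9), 67 chaperone genes (21) and 72 histone genes (9). It also held for 44 intestine genes (1), 47 epidermis genes (2), 140 neuropeptide and insulin-like genes (2) and 31 major sperm protein genes (0). With a background share of 1.37%, lists of this size are too short for a 0 to say anything about them.

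In the replication list 1 of 43 genes (2.33%) had a just-inside peak, cdt-1, and 27 had an upstream peak. In the mitosis list 3 of 68 (4.41%) had one and 30 had an upstream peak. They were knl-2, a centromere gene needed to load CENP-A (rank 525, 26 bp, signals of 327 and 194), spd-5 and mix-1. Of 65 genes for translation and tRNA synthetases, pars-2 (rank 3075), yars-2 (rank 3374) and aars-1 (rank 4105) had one, and 28 had an upstream peak. The mitochondrial ribosomal list had 1 of 70 (mrpl-47, rank 1119, 3 bp) beside 22 upstream, and the splicing list 1 of 59 (snrp-40.1, a U5 snRNP gene, rank 1427, 28 bp) beside 21.

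Of 77 fate transcription factors and related regulators, lin-28, the heterochronic RNA-binding protein gene (rank 652, 12 bp past an end 884 bp into the locus), sma-2, a Smad gene of body size (rank 2136), and egl-27, which encodes an MTA-like protein (rank 3614), had one (3.90%), and 12 had an upstream peak. The lin-28 signals were 243 and 189. In the insulin and dauer list 1 of 25 had one, daf-15, the worm Raptor gene (rank 775, 12 bp, in coding sequence), and in the homeobox list 1 of 63, ceh-38. Among neuron genes it was 1 of 65, egl-30, for a Gq alpha subunit (rank 559, 264 bp past an end 990 bp into the locus). Muscle genes gave 1 of 45, unc-22, for twitchin (rank 3471, in an intron), and germline and small RNA genes gave 1 of 86, alg-2, for an Argonaute of the microRNA pathway (rank 2051, in an intron).

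Of the large families, most were near the background. The ubiquitin list had 8 of 401 genes (2.00%), led by ubh-4, a ubiquitin hydrolase gene (rank 1532, 2 bp), and the F-box genes fbxa-90 (rank 1677) and fbxa-27 (rank 1696, 288 bp, in an intron and with an E2F-type word). Nuclear hormone receptors had 5 of 269 (1.86%), led by nhr-56 (rank 3295), nhr-41 (rank 3337) and nhr-133 (rank 3795). Chemoreceptors had 1 of 1277 (0.0783%), srh-2 (rank 1962), and 4 with an upstream peak. Cuticle collagens had 2 of 156 just inside, col-72 and col-85, and 1 upstream. The col-72 summit lay 452 bp past the end in a first intron of 2523 bp (rank 1331, signals of 139 and 87.2) and that of col-85 lay 381 bp past it (rank 1602, signals of 109 and 81.8).

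Members were spread over the 6 nuclear chromosomes. They numbered 60 on II, 53 on I, 52 on III, 50 on V and 47 on IV, with 17 on X. The X held 6.09% of members (3.84% to 9.54%), 9.62% of upstream peaks (8.50% to 10.9%) and 11.5% of all IDR peaks.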

How the data were processed

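EFL-1 ChIP-seq had been done on 2 samples of 1 group. The peak lists were used as deposited, on ce11, 4 in number: the IDR list (4534 peaks), the joint list (21875 regions) and each replicate's own list (25572 and 27203 regions). The signal of each peak, its −log10 q value and its summit offset are the authors' own, in deposited narrowPeak columns with no file header. The deposited READMEs state that a replicate's list was called on its own alignments against a control and the joint list on both, from which IDR peaks were then taken. The aligner, the caller and the IDR threshold were not given in the sources used here, and the reads behind a peak cannot be counted. The control and the lists on ce10 were not used here, and 0 columns of unmapped samples were present.

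The summit was the deposited start plus the offset plus 1. Distances were taken to all 29314 protein-coding transcript 5' ends of Ensembl release 115 (WBcel235), with bases from RefSeq. A summit's class was taken over all protein-coding transcripts in the order 5' UTR, coding, 3' UTR, intron. For each peak the strongest overlapping region in each replicate's list was taken. The steps ran in Python 3.11.15 with numpy 2.4.6, pandas 2.3.3 and matplotlib 3.10.9 and were tested on simulated data. No p-value was computed, as there is 1 group. Of the listed symbols 11 matched no gene. The count of 1 gene list is not reported here.

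Genes were named by a rule: the 10 strongest members, the 3 weakest, up to 3 strongest of each list, the 8 strongest with an E2F-type word, the 5 strongest intronic ones with no second summit, the 5 with the largest difference in replicate ranks and 3 on each side of both limits. Genes with several members, internal 5' ends, tRNA genes, partner genes, second summits and a GAGACGCA word were named after their values were seen. Members and lists were chosen with earlier results of these data known. Alternatives covered 1 replicate at a time, summits, 5' ends, list, window and motif settings.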

Additional observations from a re-analysis of the deposited data

How the results depend on the processing

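The 11 summary values were recomputed under 1 change at a time, 115 values in all, of which 69 kept within their error or within 1.5 times the count and 46 moved. For shares the error was the Wilson interval of the main value. For the median distance and percentile it was the standard deviation between the values of the single-replicate lists, which is a rough measure. The single-replicate values of these medians were thus judged by their own spread. Using a single replicate's strongest regions, as many as the IDR list holds, in its place gave 287 to 317 peaks, 283 to 311 genes, 10.8% to 11.9% of near summits, median distances of 110 to 116 bp and median percentiles of 36.1 to 38.6. It gave 47.6% to 50.9% in a 5' UTR, 32.8% to 34.1% in introns, 13.2% to 17.03% in coding sequence, 9.76% to 10.7% with an E2F-type word, 11.1% to 15.1% with a second summit upstream and 18.5% to 21.8% with AG. The higher shares with AG and a second summit, and the lower percentile, came from replicate 3's list.

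Of the 279 members, 244 overlapped a member found in replicate 2's list and 234 one found in replicate 3's. The midpoint of the peak in place of the summit gave 280 peaks, which overlapped 268 of the members, and all 11 summary values kept within their bounds. The outermost 5' end of each gene gave a median distance of 132 bp and percentile of 42.05, and RefSeq 5' ends a distance of 122.5 bp. The 5' ends of every biotype gave 661 peaks at 655 genes, 20.2% of near summits, 64 bp, 22.1% in a 5' UTR, 5.45% in coding sequence and 9.83% with AG.

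The stronger part of the list, which holds fewer peaks by construction, gave 115 peaks at 115 genes, 7.50% of near summits, 65 bp, a percentile of 38.1 within that part, 63.5% in a 5' UTR, 27.8% in introns, 6.96% in coding sequence, 15.7% with an E2F-type word and 8.70% with AG. The 6596 joint regions with a −log10 q value over 2 gave 515 peaks at 506 genes, 14.9% of near summits, 138 bp, a percentile of 36.7, 40.2% in a 5' UTR, 21.6% in coding sequence, 19.6% with a second summit and 25.8% with AG. A window of 300 bp gave 68 bp, 61.0% in a 5' UTR and 25% in introns. A window of 1000 bp gave 424 peaks, 13.1% of near summits, 261 bp, 36.3% in a 5' UTR, 44.3% in introns and 14.2% with a second summit. Words of 7 letters raised the E2F-type share to 17.6%. Counting any joint region upstream, background included, raised the second-summit share to 40.9%, and a limit of 500 bp lowered it to 6.09%.

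No paired analysis was possible because both samples belong to 1 group. Since depth is unknown, no limit of detection can be given for a 5' end without a peak.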
